A study of Homo sapiens with 4 samples.

Results

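The MYC family and its MAX partners were measured by 20 probes named for 9 genes on two-colour Agilent whole human genome arrays, out of 41000 non-control probes on the array. The members were every non-control probe whose gene name in the scanner output was MYC, MYCN, MYCL1 (now MYCL), MAX, MXD1, MXD3, MXD4, MXI1 or MNT, and probes of a gene were kept apart. They took 29 spots of each array, because 1 MYC probe was printed 10 times. Meg-01 is an established human megakaryoblastic leukemia line that was grown here in medium with fetal bovine serum. Meg01-5-13 and Meg01-4-14, called 5-13 and 4-14 below, each came from 1 colony that had been infected with lentivirus carrying a GATA1 shRNA, so that each knockdown group is a single clone. GATA1-neg was a pool of Meg-01 cells infected with lentivirus for a control shRNA of little homology to human genes, so that lentiviral infection was common to all 3 RNAs. The comparison asked which transcripts differ once GATA1, a transcription factor of the megakaryocytic and erythroid lineages, is lowered. Because colonies were set against a pool, lower GATA1 and growth from a single colony cannot be told apart in any ratio. Each of the 4 arrays set 1 clone against GATA1-neg, and each clone was run once with its RNA in red and once in green.

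MYC, MYCN and MYCL are transcription factors that bind DNA at E-box sequences as dimers with MAX, and they mostly raise transcription of genes for growth and cell division. The MXD proteins, MXI1 and MNT also pair with MAX at E-boxes, but they bring in SIN3 and histone deacetylases and lower transcription, so that both kinds of partner compete for MAX. In blood cells MYC is high in dividing precursors and is turned down as they mature, and GATA1 is known to lower MYC transcription during erythroid maturation. MYCN is best known from the embryo and from neuroblastoma, and MYCL from lung.

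Promoters of 8 of these genes, all but MYC, were found in a RefSeq table of GRCh38.p14 (11 promoters). They are shown for MYCN and MYCL, the MYC genes with the highest knockdown ratios, as the 250 bases before the transcription start, and for the 2 genes with an E-box as a window of 30 bases. The E-box CACGTG, which reads alike on both strands and is in capitals below, was found in MXD4 and MNT, where its first base lay at -238 and -193 from the start. The same letters were in 2548 of 35116 promoters of 300 bases in that table, 7.26%. The GATA motifs AGATAA or AGATAG, with TGATAA or TGATAG also, searched on both strands, were found in 0 of the 8 genes and in 25% of all promoters, which says only that these letters are not in these windows.
MYCN, chr2:15940300-15940549, plus strand: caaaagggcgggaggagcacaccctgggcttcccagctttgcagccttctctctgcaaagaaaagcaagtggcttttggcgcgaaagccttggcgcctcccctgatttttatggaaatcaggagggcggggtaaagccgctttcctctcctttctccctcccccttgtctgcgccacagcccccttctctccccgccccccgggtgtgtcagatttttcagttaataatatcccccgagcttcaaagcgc
MYCL, chr1:39901918-39902167, minus strand: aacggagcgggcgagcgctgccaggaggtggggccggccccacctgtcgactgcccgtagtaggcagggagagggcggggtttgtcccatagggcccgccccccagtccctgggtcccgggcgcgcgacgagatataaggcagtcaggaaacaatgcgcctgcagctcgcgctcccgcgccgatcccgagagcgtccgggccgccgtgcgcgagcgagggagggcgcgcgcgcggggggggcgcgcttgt
MXD4, chr4:2262330-2262359, minus strand: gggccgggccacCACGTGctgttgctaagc
MNT, chr17:2401236-2401265, minus strand: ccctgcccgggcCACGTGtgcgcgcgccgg

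GATA1 itself, measured with probe A_24_P374244, had normalized intensities of 1332, 1317, 1142 and 1116 in the knockdown RNA and of 1535, 1667, 1535 and 1667 in GATA1-neg. Arrays are given in this order throughout, first 5-13 and then 4-14, each with the knockdown in red and then in green. The level of GATA1 was thus 82.7% of GATA1-neg in 5-13 and 70.6% in 4-14, lower on 4 of 4 arrays (adjusted p from limma 0.61). Erythroid markers were well above background in 10 of 10 cases in GATA1-neg and in the knockdown clones, megakaryocyte markers in 10 of 14 in GATA1-neg and 9 of 14 in the knockdown clones (PF4, PPBP, VWF and SELP, which mark late megakaryocytes, were not), and granulocyte and monocyte markers in 1 of 10 and 0 of 10. Log2 ratios correlated at 0.806 and 0.641 between the dye-swapped arrays of 5-13 and of 4-14, at 0.387 and 0.409 between clones in the same dye orientation, and at 0.171 and 0.216 between clones in the opposite one. The extraction text of the labels names clones of CMK, another megakaryoblastic line, whereas all other labels name Meg-01. In bulk RNA, fewer cells with a transcript and less of it per cell cannot be told apart.

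No member probe passed the threshold in the mean of both clones. By limma, 0 of 20 member probes reached an unadjusted p of 0.005 or less, which 369 of 40974 tested probes (0.901%) did (134, or 0.327%, higher and 235, or 0.574%, lower), and at an unadjusted p under 0.05 the counts were 0 of 20 and 7.42% of all probes. After Benjamini-Hochberg adjustment 0 probes of either kind were called, and the lowest unadjusted p of a member was 0.0521. An error-weighted mean of the scanner software's own log ratios, which counts the measurement error within arrays and not the spread between clones, called 3 of 20 member probes after adjustment against 8.33% of all probes. These were 1 probe each of MYCN, MYCL1 and MAX, all higher in the knockdown, a direction called for 4.02% of all probes, while 4.31% were called lower. The limma p-values and intervals rest on the spread between 2 clones, which eBayes moderates toward the spread typical of all probes. The spread of GATA1-neg, which was 1 RNA, was not measured.

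By direction, 6 of 20 member probes were higher than GATA1-neg on all 4 arrays, against 12.8% of all probes, and 1 was lower on all 4, against 13.4%. The 6 were 1 probe of MYCN, the 3 of MAX, 1 of MXD1 and 1 of MXD4, and the 1 lower probe was that of MXI1. MAX alone thus gave 3 of the 6. Among the 16 members well above background in all 8 channels, 5 were higher and 1 lower on all 4 arrays, beside 15.9% and 16.8% of such probes. The median log2 ratio over the 20 probes was 0.07 for the mean of the clones, 0.11 in 5-13 and 0.05 in 4-14, beside 0 over all probes in each case. The first of these was 0.029 without background correction, 0.159 with the scanner software's log ratios, and 0.033 without the 5-13 array with the knockdown in red. The share of all probes that cleared background in all 8 channels was 58.1%, and the 4 members that did not were 1 probe of MYCN, both of MYCL1 and 1 of MXD3.

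**Figure D1:**
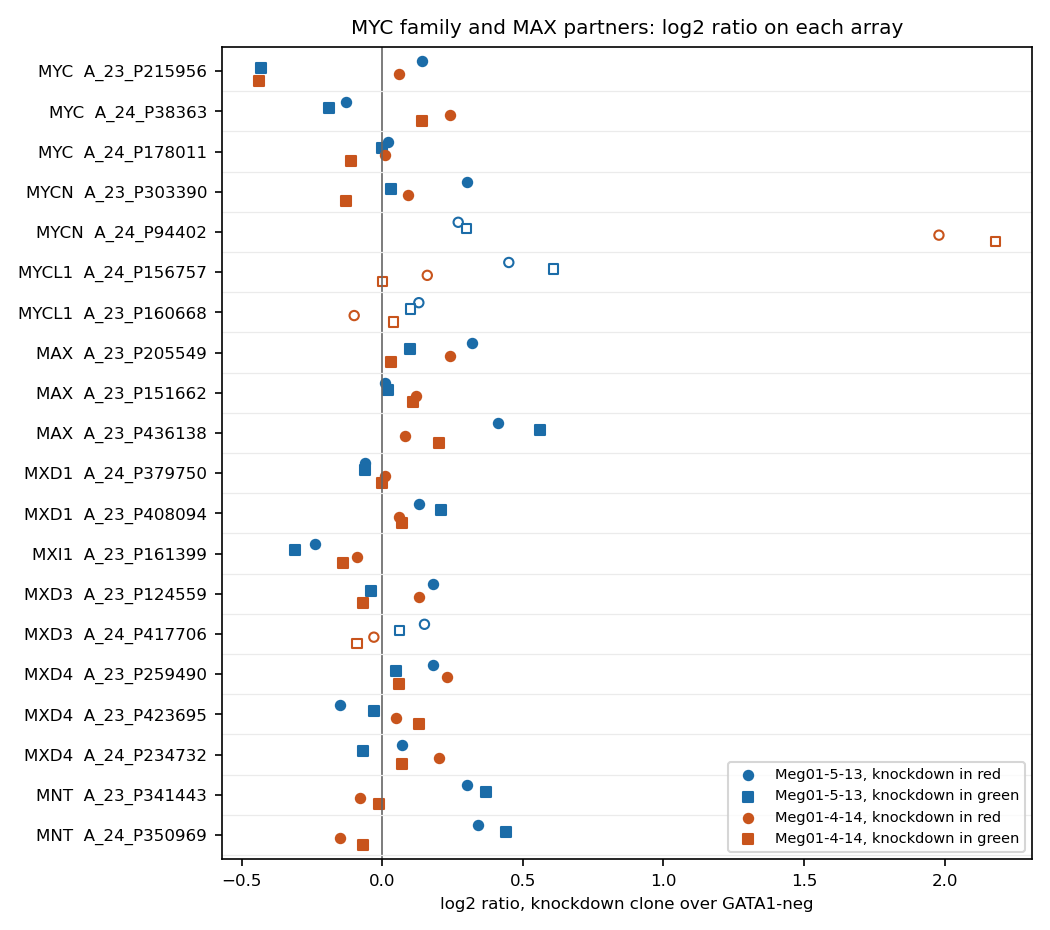
Log2 ratio of knockdown clone over GATA1-neg (horizontal axis) for each of the 20 member probes (rows) on each of the 4 arrays, by clone (colour) and dye orientation (circles for the knockdown in red, squares in green). Hollow points have at least 1 of the 2 RNAs not well above background. A MYCN probe in 4-14, at 1.98 and 2.18, stands apart from the other values, which lie between -0.44 and 0.61.

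MYCN was far higher in 4-14 than in GATA1-neg by 1 of its 2 probes. Probe A_24_P94402 (chromosome 2, 16004218 to 16004277 of hg18) had normalized intensities of 137, 132, 469 and 417 in the knockdown RNA and of 114, 107, 119 and 92.2 in GATA1-neg. The knockdown signal cleared background on 4 of 4 arrays and that of GATA1-neg on 0 of 4. By this probe the signal was 1.22-fold that of GATA1-neg in 5-13 and at least 4.06-fold in 4-14. Both values set the knockdown mean against, on each array, the higher of the probe's own GATA1-neg signal and the lowest signal of any probe well above background. In 5-13 the probe's own signal was the higher (114 and 107 against 105 and 87.4), so that 1.22 is the measured ratio and not a bound. Neither value counts the error of measurement. The groups did not overlap, and the 2 clones lay far apart. Overlap, here and below, compares readings of 2 clone RNAs and 1 GATA1-neg RNA, and its share over all probes was not counted. The measured log2 ratios were 0.27 and 0.30 in 5-13 and 1.98 and 2.18 in 4-14, with a mean of 1.18 ± 1.27 (SD over n = 2 clones, 95% interval -0.44 to 2.80, limma adjusted p 0.70). That mean rests on a GATA1-neg signal not well above background and went from 0.50 without background correction to 2.28 with the scanner software's log ratios, and the error-weighted mean was 2.31 (adjusted p 3.9e-23).

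The other MYCN probe, A_23_P303390, did not show that difference. Its alignment covers 1264 bases of hg18 (chromosome 2, 15998259 to 15999522), upstream of the first probe's place. Its intensities were 210, 190, 180 and 163 in the knockdown RNA and 171, 187, 169 and 178 in GATA1-neg, all well above background, and the groups overlapped. The log2 ratios were 0.16 in 5-13 and -0.02 in 4-14, with a mean of 0.07 ± 0.13 (SD over n = 2 clones, 95% interval -0.16 to 0.31, limma adjusted p 0.84). Both probes list the same RefSeq transcript of MYCN, and the disagreement between them in 4-14 was not tested.

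MYC, the most widely used member of the family in blood cells, did not pass the threshold with any of its 3 probes. Probe A_23_P215956, on chromosome 8 and printed in 10 spots, had intensities of 100040, 83763, 97912 and 77759 in the knockdown RNA and of 90963, 113149, 93801 and 105716 in GATA1-neg. Its log2 ratios were 0.14 and 0.06 with the knockdown in red but -0.43 and -0.44 with the knockdown in green, so that the sign followed the dye in both clones. Over the 10 spots the ratios ran from 0.05 to 0.25 and from -0.54 to -0.28 on the arrays of 5-13, and from -0.05 to 0.16 and from -0.59 to -0.30 on those of 4-14. The swing between dye orientations was 0.57 and 0.50, beside SDs of 0.19 and 0.19 over all probes. The clone means, in which a dye effect cancels, were -0.15 and -0.19, and the mean was -0.17 ± 0.03 (SD over n = 2 clones, 95% interval -0.34 to 0.00, unadjusted p 0.0521, limma adjusted p 0.68). It ranged from -0.31 to -0.03 when arrays were left out in turn, and was at its most negative without the 5-13 array with the knockdown in red. The error-weighted value was -0.09.

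The other MYC probes gave ratios around 0. Probe A_24_P38363 had intensities of 376, 367, 462 and 454 in the knockdown RNA against 411, 418, 390 and 411 in GATA1-neg. It was below GATA1-neg on both arrays of 5-13 and above it on both of 4-14, with log2 ratios of -0.16 and 0.19 and a mean of 0.02 ± 0.25 (SD over n = 2 clones, limma adjusted p 0.98). Probe A_24_P178011, which lists no RefSeq transcript, had ratios of 0.01 and -0.05. Its intensities were 170, 153, 151 and 139 in the knockdown RNA against 168, 154, 150 and 150 in GATA1-neg. The 3 MYC probes thus did not share a direction in either clone, but these 2 were far dimmer than A_23_P215956.

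MYCL was at or under the background in most RNAs. Probe A_24_P156757 (chromosome 1, 40138100 to 40138159 of hg18) had intensities of 164, 158, 108 and 102 in the knockdown RNA and of 120, 103, 96.6 and 102 in GATA1-neg. Only the knockdown RNA of 5-13 was well above background, on 2 of 2 arrays, and its signal was 1.44-fold that of GATA1-neg. This is the measured ratio and not a bound. GATA1-neg, at 120 and 103, lay above the lowest signals well above background, 105 and 87.4. In 4-14 both RNAs were below background and no fold is given. The measured mean log2 ratio, which includes the 4-14 arrays where neither RNA cleared background, was 0.31 ± 0.32 (SD over n = 2 clones, 95% interval -0.13 to 0.74, limma adjusted p 0.71). That mean went from 0.1 without background correction to 0.85 with the scanner software's log ratios, and the error-weighted mean was 1.23 (adjusted p 4e-05). The other MYCL probe, A_23_P160668, was not well above background in any RNA.

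**Figure D2:**
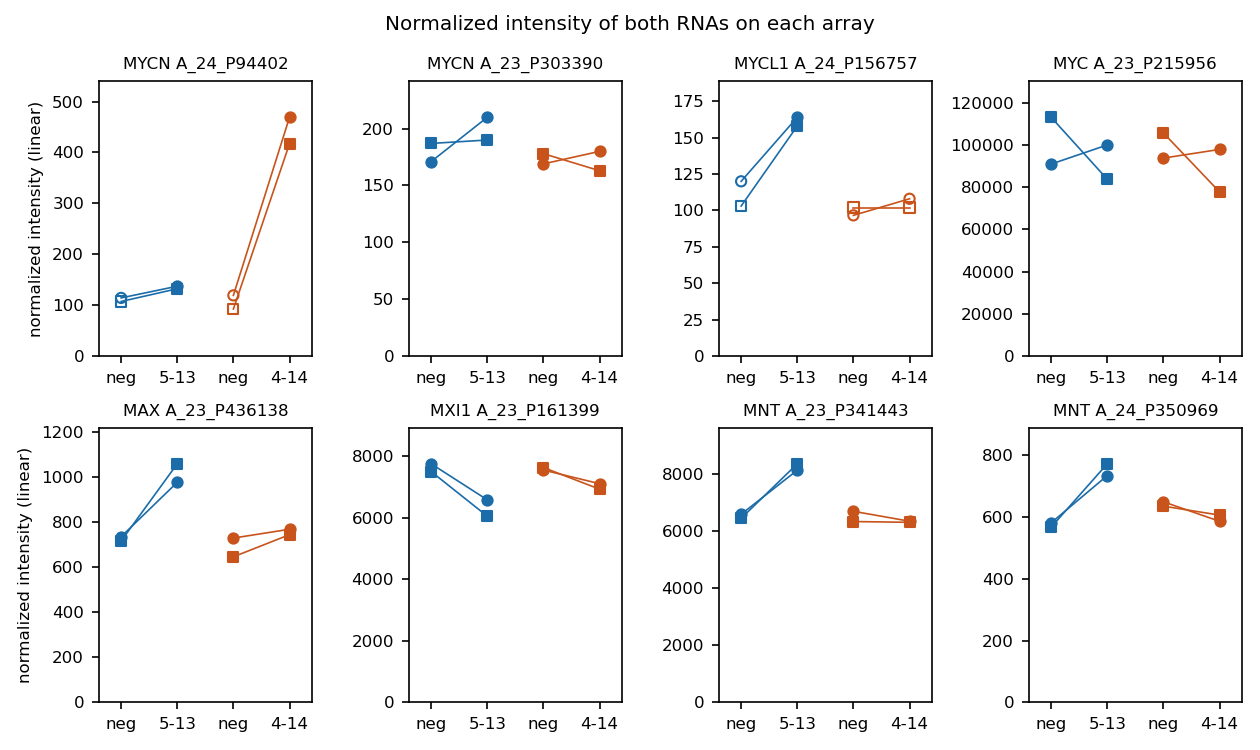
Normalized intensity on a linear axis from 0 in GATA1-neg (neg) and in the knockdown clone (5-13 or 4-14) for 8 member probes. Lines join the 2 RNAs of 1 array, circles have the knockdown in red and squares in green, and hollow points are not well above background. MYCN A_24_P94402 reaches 469 and 417 in 4-14, and the lines of MYC A_23_P215956 cross between dye orientations.

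MAX, the shared partner, was higher than GATA1-neg on 4 of 4 arrays with each of its 3 probes, by small amounts. The probes lie at different places on chromosome 14 of hg18 and list different sets of RefSeq variants of MAX, with 1 variant shared by A_23_P436138 and A_23_P151662. Probe A_23_P436138 (64620587 to 64620646), which lists 1 variant alone, had intensities of 975, 1057, 767 and 743 in the knockdown RNA and 734, 715, 728 and 645 in GATA1-neg. The groups did not overlap, and 5-13 was the higher clone. The log2 ratios were 0.49 and 0.14, with a mean of 0.31 ± 0.25 (SD over n = 2 clones, 95% interval -0.04 to 0.67, unadjusted p 0.0677, limma adjusted p 0.68), and the error-weighted mean was 0.35 (adjusted p 0.013). This mean lay above 97.2% of all probes.

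Probe A_23_P205549 of MAX (64611756 to 64611815) had intensities of 9397, 8783, 8590 and 8141 in the knockdown RNA and of 7512, 8221, 7286 and 7984 in GATA1-neg. The knockdown was the brighter RNA on each array, although the ranges of the groups overlapped. Its log2 ratios were 0.21 and 0.13, with a mean of 0.17 ± 0.05 (SD over n = 2 clones, 95% interval -0.01 to 0.35, limma adjusted p 0.68). Probe A_23_P151662 (64630212 to 64630271) had the least difference of the 3, with log2 ratios of 0.02 and 0.12 and an adjusted p of 0.82 from limma. The 3 probes thus shared a sign but not a size, from 0.07 to 0.31 in the mean.

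MXI1, a repressor that competes for MAX, was the only member below GATA1-neg on 4 of 4 arrays. Probe A_23_P161399 (chromosome 10, 112035935 to 112035991 of hg18) had intensities of 6583, 6051, 7107 and 6929 in the knockdown RNA and of 7753, 7501, 7550 and 7631 in GATA1-neg. The groups did not overlap, and the readings of GATA1-neg, a single RNA, varied little over the arrays (CV 1.45%). MXI1 stood at 82.8% of GATA1-neg in 5-13 and at 92.5% in 4-14, a mean log2 ratio of -0.19 ± 0.11 (SD over n = 2 clones, 95% interval -0.41 to 0.03, unadjusted p 0.0693, limma adjusted p 0.68). Of all probes, 8.36% had a lower mean.

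MNT, the MAX partner that is present in most cells whether they divide or rest, was higher than GATA1-neg in 5-13 and close to it in 4-14 with both probes. Probe A_23_P341443 (chromosome 17, 2234326 to 2234385 of hg18) had intensities of 8138, 8362, 6350 and 6311 in the knockdown RNA and of 6593, 6450, 6697 and 6338 in GATA1-neg. Probe A_24_P350969 (2239929 to 2239988) had 734, 772, 586 and 606 against 581, 567, 649 and 635. With either probe 5-13 was above every GATA1-neg value and 4-14 below the GATA1-neg value of its own array. The log2 ratios were 0.34 and 0.39 in 5-13 and -0.04 and -0.11 in 4-14. The means were 0.15 ± 0.27 and 0.14 ± 0.35 (SD over n = 2 clones, limma adjusted p 0.80 and 0.85). Each clone is 1 replicate, and the difference between the clones was not tested.

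The MXD genes, whose products rise as cells leave the cell cycle, had mean log2 ratios from -0.03 to 0.13 over their 7 probes. Of MXD1, probe A_23_P408094 had intensities of 241, 245, 215 and 213 in the knockdown RNA and of 221, 211, 206 and 203 in GATA1-neg. It was higher on 4 of 4 arrays, with a mean of 0.12 ± 0.07 (SD over n = 2 clones, 95% interval -0.08 to 0.31, limma adjusted p 0.72). The other MXD1 probe, A_24_P379750, had ratios of -0.06 and 0.00 and intensities from 4338 to 4586 in the knockdown RNA and from 4514 to 4600 in GATA1-neg.

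MXD4 was higher on 4 of 4 arrays with probe A_23_P259490, whose intensities were 451, 418, 455 and 464 in the knockdown RNA and 399, 403, 387 and 444 in GATA1-neg. Its log2 ratios of 0.11 and 0.15 gave a mean of 0.13 ± 0.02 (SD over n = 2 clones, 95% interval -0.04 to 0.30, limma adjusted p 0.69). The other MXD4 probes did not keep 1 sign over the arrays, with means of 0.00 for A_23_P423695 and 0.07 for A_24_P234732. MXD3, which differs from its relatives in being made during S phase, had a mean of 0.05 with probe A_23_P124559 and 0.02 with A_24_P417706. The second of these was well above background in 1 of 8 channels.

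**Figure D3:**
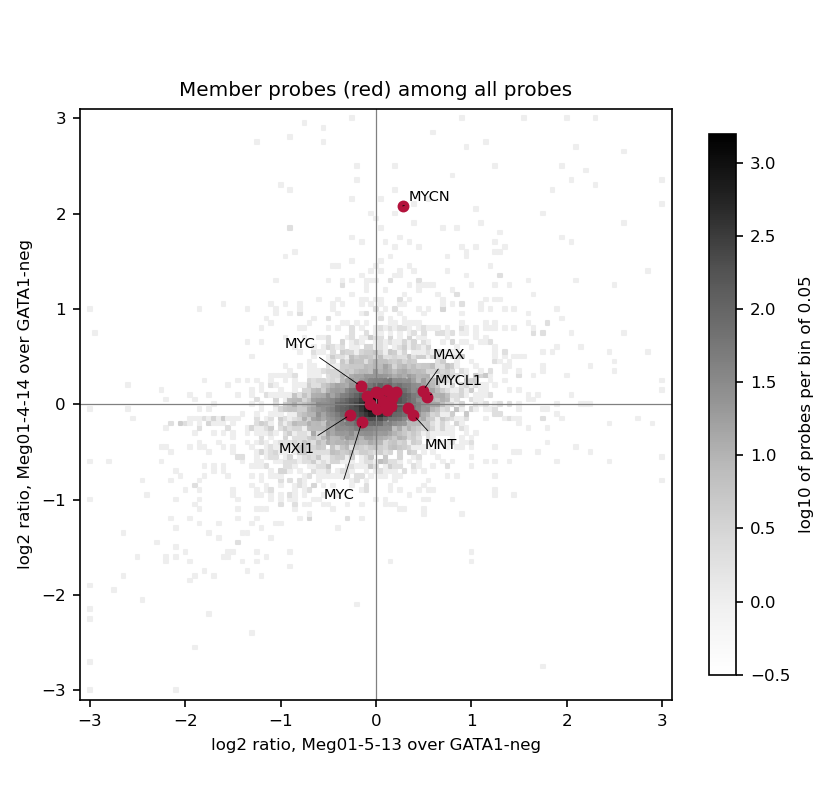
Log2 ratio over GATA1-neg in Meg01-5-13 (horizontal axis) and Meg01-4-14 (vertical axis) of the 20 member probes (red) over all 40974 tested probes (grey, darker where a bin of 0.05 holds more probes, log10 scale; a few values beyond the axis ends are drawn at the ends). MYCN lies at 0.28 and 2.08, MNT below the horizontal line at 0.39 and -0.11, and most members near the centre.

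Other genes of the network were read from lists of known partners and targets, by the same test, in which 0 probes of any list passed after adjustment. The error-weighted mean called 3 higher and 2 lower of 15 probes for other MAX network proteins, 0 and 3 of 21 for corepressors, 0 and 0 of 25 for coactivators, 4 and 0 of 31 for MYC stability, 3 and 1 of 107 for induced targets, and 9 and 2 of 42 for repressed targets, beside 4.02% and 4.31% of all probes. The other MAX network proteins (5 genes, 15 probes) had 0 probes at an unadjusted p of at most 0.005 and a median log2 ratio of 0.038. On all 4 arrays 2 were higher and 2 lower, 13.3% each, against 12.8% and 13.4% of all probes. MLX, which takes the place of MAX in a parallel network that senses glucose, was the highest. Its probe A_24_P250176 had intensities of 1992, 2020, 1247 and 1319 in the knockdown RNA and of 1216, 1184, 1247 and 1199 in GATA1-neg. MLX thus stood apart in 5-13, at log2 ratios of 0.74 in 5-13 and 0.07 in 4-14 (adjusted p from limma 0.72), and the other 2 MLX probes, A_24_P13991 and A_23_P164148, gave 0.64 and 0.59 in 5-13 and 0.05 and 0.03 in 4-14. MGA, a large MAX partner that represses E-box genes, was the lowest, and evenly so, with log2 ratios of -0.29 and -0.34 with probe A_24_P40968 (mean -0.31 ± 0.03, SD over n = 2 clones, unadjusted p 0.00981, limma adjusted p 0.57). Its intensities were 1660, 1665, 1543 and 1619 in the knockdown RNA and 2041, 2038, 1967 and 2020 in GATA1-neg, without overlap. The 3 other MGA probes had means of -0.06, -0.14 and -0.16.

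The corepressors that MXD proteins and MNT recruit (14 genes, 21 probes) also had 0 probes at 0.005. On all 4 arrays 2 were higher and 5 lower, 9.52% and 23.8%, against 12.8% and 13.4% of all probes. The median log2 ratio was -0.072 (-0.143 in 5-13 and -0.019 in 4-14). HDAC2, a histone deacetylase of the SIN3 complex, had the lowest mean among probes with 1 sign on all 4 arrays, -0.31 ± 0.10 (SD over n = 2 clones, limma adjusted p 0.61), with intensities of 26029, 28578, 28837 and 28912 against 37820, 33601, 36041 and 32198. The lowest means of the list were those of both probes of RBBP4, a histone-binding subunit, each -0.40, with log2 ratios of -0.84 and -0.84 in 5-13 but 0.03 and 0.04 in 4-14 (limma adjusted p 0.75 and 0.75). ARID4B and ARID4A, subunits of the same complex, had means of -0.22 and -0.16 with their probes of 1 sign on all 4 arrays. Their other probes, without 1 sign, had -0.11 and -0.13. The scaffolds SIN3B and SIN3A had 0.21 and -0.02. The coactivators of MYC (15 genes, 25 probes) had 0 probes at 0.005 and a median of 0.002. On all 4 arrays 4 were higher and 4 lower, 16% each, against the same shares of all probes. WDR5, which helps MYC onto chromatin, had the highest mean of those named, 0.17, and EP300, a histone acetyltransferase, the lowest, -0.13.

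Genes that set how long the MYC protein lasts (20 genes, 31 probes) had 0 probes at 0.005. On all 4 arrays 9 were higher and 3 lower, 29% and 9.68%, against 12.8% and 13.4% of all probes. Among all probes well above background in all 8 channels, as 30 of the 31 were, the shares were 15.9% and 16.8%. The 9 include every probe of PPP2R5A, at means of 0.14, 0.16 and 0.13. The list holds genes that mark MYC for breakdown and others that protect it, so its counts have no single direction. The median of the list was 0.065, with 0.125 in 5-13 and 0.017 in 4-14. SKP2, a ubiquitin ligase subunit that marks MYC for breakdown, had intensities of 1154, 1084, 836 and 816 in the knockdown RNA and of 737, 762, 715 and 752 in GATA1-neg. The groups did not overlap, and the mean log2 ratio was 0.37 ± 0.29 (SD over n = 2 clones, limma adjusted p 0.68). FBXO32, another ubiquitin ligase subunit, had log2 ratios of 0.65 and 0.06, and AURKA, a mitotic kinase that protects MYCN protein, 0.30 and 0.06. The ubiquitin ligase TRIM32 was lower on 4 of 4 arrays with both of its probes, at means of -0.19 and -0.15. Without the same sign on all 4 arrays, the 2 probes of CIP2A had log2 ratios of 0.88 and 0.65 in 5-13 and 0.08 and 0.00 in 4-14. Their means were 0.48, the highest of the list, and 0.32 (limma adjusted p 0.72 and 0.74). PIM1 had the lowest mean, -0.28, with 0.05 in 5-13 and -0.60 in 4-14. SET probe A_23_P217015 had -1.10 and 1.06, and the other SET probe 0.05 and 0.08.

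Genes that MYC is known to induce (62 genes, 107 probes) had 0 probes at 0.005 and a median log2 ratio of 0.026. On all 4 arrays 16 were higher and 12 lower, 15% and 11.2%, against 12.8% and 13.4% of all probes. CCND2, a G1 cyclin, had means of 0.42, 0.29 and 0.23 with its 3 probes (limma adjusted p 0.68 for each), the first of them, A_23_P139881, without 1 sign on all 4 arrays. GNL3, a nucleolar GTPase, had 0.23 and 0.18 with its 2 probes. The lowest mean of the list, -0.51, was that of 1 of 2 probes of E2F2, a factor for entry into S phase. Probe A_23_P408955 had intensities of 5333, 5783, 7948 and 8200 in the knockdown RNA and of 10190, 9247, 9869 and 8815 in GATA1-neg. By this probe E2F2 was at 57.2% of GATA1-neg in 5-13 and 86.6% in 4-14 (adjusted p from limma 0.68), whereas the other probe, A_23_P125990, had log2 ratios of -0.04 and 0.00. GART, a purine synthesis enzyme, had means of -0.28, -0.26 and -0.25 with its 3 probes.

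Genes that MYC is known to repress (22 genes, 42 probes) held 3 probes higher at 0.005, beside 0.327% of all probes, and 0 lower, and all 3 were probes of CCND1. By sign, 12 were higher and 5 lower on all 4 arrays, 28.6% and 11.9%, against 12.8% and 13.4% of all probes. Probes of the same gene were among the 12, as for CCND1, CEBPA and RGS16. The median of the list was 0.018. CCND1, cyclin D1, had intensities with probe A_24_P193011 of 375, 365, 398 and 381 in the knockdown RNA and of 231, 222, 238 and 230 in GATA1-neg. It passed the unadjusted threshold but not the adjusted one, with log2 ratios of 0.71 and 0.74 (mean 0.72 ± 0.02, SD over n = 2 clones, 95% interval 0.55 to 0.89, unadjusted p 0.000815, limma adjusted p 0.40). The 2 other CCND1 probes had means of 0.55 (p 0.00467) and 0.74 (p 0.0036). CEBPA, a factor of granulocytic differentiation, had a pattern over the clones close to that of MYCN probe A_24_P94402. Its log2 ratios were 0.54 and 2.15 with A_24_P224727 and 0.37 and 1.72 with A_23_P375494 (adjusted p from limma 0.68 and 0.68). A further CEBPA probe, A_24_P216165, gave 0.02 and 0.03. CEBPD, of the same list, had its larger ratio in 5-13, with 1.24 there and 0.22 in 4-14. Its adjusted p was 0.69 from limma and 2.8e-08 from the error-weighted mean. CDKN1C had 0.55 and 0.40 (unadjusted p 0.00582 and adjusted p 0.56 from limma, adjusted p 8.9e-06 from the error-weighted mean). TXNIP, which restrains glucose uptake, had the lowest mean of the list among those named, -0.44 ± 0.08 (SD over n = 2 clones, unadjusted p 0.00547, limma adjusted p 0.56).

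**Figure D4:**
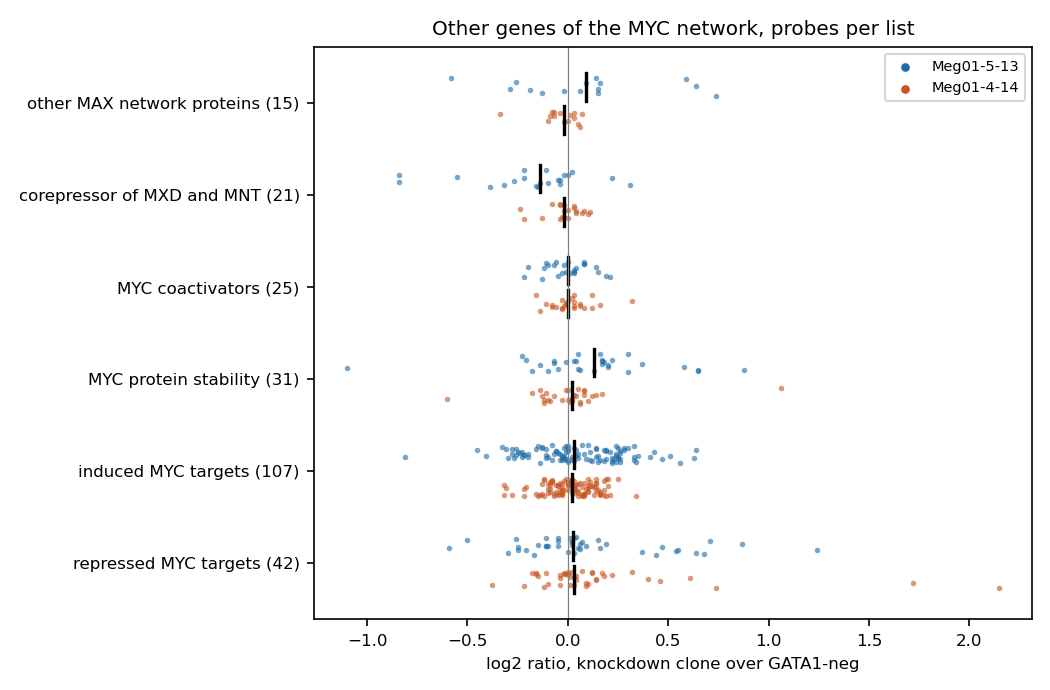
Log2 ratio over GATA1-neg of every probe in 6 lists of MYC network genes (number of probes in brackets), by clone. Black bars are medians, and the vertical scatter within a row carries no value. The medians lie between -0.143 and 0.125, and the point at 2.15 in the bottom row is CEBPA in 4-14.

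The probes most like MYCN A_24_P94402 over the 4 arrays, by the Euclidean distance of log2 ratios among 23959 probes well above background in the same way, were those of NUDT10 (distance 0.21), DACH1 (0.30), KIAA0367 (0.43), LOC347097 (0.48) and CEBPA (0.49). Their log2 ratios ran from 0.01 to 0.54 in 5-13 and from 1.87 to 2.15 in 4-14. These distances use the measured ratios of a MYCN probe whose GATA1-neg signal was not well above background. All of these arrays share GATA1-neg, and the distance is a description.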

How the data were processed

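Total RNA of 2 GATA1 shRNA clones of Meg-01 was hybridized against GATA1-neg on 4 two-colour arrays on 1 slide. The files that the authors deposited are what Feature Extraction 9.5.3.1 wrote for each array, in which the intensity of each spot is linear and not normalized, with positions on hg18. The log10 ratio of each spot and its error were deposited by the authors as that program computed them, and the value table of the series held the same ratios, turned to knockdown over control, to within 4.97e-06. The authors' combination of arrays was not used here.

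For log2 ratios, limma 3.58.1 was run under R 4.3.3 (data.table, version 1.17.8). Background was corrected by normexp with an offset of 50 over 45015 spots. Loess within arrays gave control spots a weight of 0, which left 43376 non-control spots, outlier spots among them. Control and outlier spots were then removed, spots of a probe averaged, dye swaps turned, and the 2 arrays of a clone averaged to 1 replicate. Intensities are per channel after loess and Aquantile and are open to dye bias. A probe is well above background when at least 50% of its spots carry the scanner software's mark. The mean of 2 clones was tested against 0 (two-sided, eBayes), with Benjamini-Hochberg adjustment over 40974 probes and 26 probes without a value left out. The error-weighted mean of 4 arrays approximates the study's combination without being it. Replicate numbers mark the dye orientation alone. The number of arrays limits the precision. The alternatives were background correction (none), the source of log ratios (Feature Extraction or the value table), centring by the median, removal of dim probes, outlier marks ignored, a trend with intensity in eBayes, the 4 arrays in place of 2 clone means, with a replicate block or none, the error-weighted mean, which changes the log ratios and the test together, and leaving out each array.

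Members and gene lists were chosen with earlier results of these data known. Besides the members, the rule named list probes at an unadjusted p of at most 0.005, and the 3 highest and 3 lowest means among list probes with 1 sign on all 4 arrays that were well above background. Probes outside it were named after their values were seen. These were RBBP4, CIP2A, PIM1, SET, CEBPD, CDKN1C, PPP2R5A and SIN3A. Further probes of MLX, MGA, ARID4A, ARID4B, CEBPA, CCND2, GNL3, E2F2 and GART were also among them. Of 18027 RefSeq accessions, 17054 (94.6%) matched a current symbol.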

Additional observations from a re-analysis of the deposited data

Results flagged for a closer look

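For 6 member probes, both arrays of one clone lay above GATA1-neg and both arrays of the other below it, against 15.9% of all probes. The log2 ratio in 5-13 minus that in 4-14 was 0.38 and 0.50 for the MNT probes A_23_P341443 and A_24_P350969, and -0.35 for MYC A_24_P38363. It was -0.18 for MXD4 A_23_P423695, 0.16 for MXD3 A_24_P417706, which was above background in 1 of 8 channels, and -0.07 for MXD1 A_24_P379750. Each clone is 1 replicate, and these differences were not tested.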

How the results depend on the processing

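Of the 20 member probes, none passed an adjusted p of 0.05 under any alternative except the error-weighted mean, which called 3 (MYCN, MYCL1 and MAX) and 3 also at an unadjusted p of 0.005. The direction changed for probes near 0, as for MXD4 A_23_P423695 (0.00, and -0.03 to 0.03 with 1 array left out), MYC A_24_P38363 (-0.01 to 0.04 with 1 array left out, negative without the 4-14 array with the knockdown in red) and MYC A_24_P178011 (-0.05 to 0.01, positive without the 4-14 array with the knockdown in green). The median over the members, 0.066, went to 0.029 without background correction, to 0.159 with Feature Extraction log ratios or the series value table and to 0.157 with the error-weighted mean, and ran from 0.033 to 0.101 with 1 array left out. Over all probes, the 369 called at 0.005 became 2209 with the 4 arrays as 4 values and no replicate block, 1776 with the replicate block and 3536 with the error-weighted mean, and ran from 378 to 438 with 1 array left out. The 0 called after adjustment became 1 with a filter on dim probes, 1 with an intensity trend, 1240 without and 269 with the replicate block, 3415 with the error-weighted mean, and ran from 0 to 1 with 1 array left out. The replicate block stands for dye orientation: deviations from the clone means correlated at 0.773 between arrays of the same number and -0.773 otherwise, and the block called 0 members. The filter on dim probes left 25747 probes and 18 members. The low signals of MYCN A_24_P94402 and of MYCL limit what their ratios can show.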
